A study of Mus musculus with 4 samples.

Results

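The type I interferon stimulated genes described here are 38 mouse genes of antiviral defence, interferon signalling and nucleic acid sensing, taken as a list of symbols from 55416 gene IDs in a count table of messenger RNA. All 38 symbols matched an Ensembl gene ID, and 37 passed the filter on low counts that left 16566 genes for testing; Ifi44, with 3, 2, 1 and 2 counts in the 4 libraries, did not. The RNA came from myeloid-derived suppressor cells (MDSCs), immature myeloid cells that accumulate in tumours and restrain T cells. Mice received EL4 cells, an established mouse T lymphoma line, and MDSCs were sorted by flow cytometry from their ascitic fluid 14 days later. The study asked which transcripts of these cells depend on sphingosine kinase 2 (Sphk2), a lipid kinase that makes sphingosine 1-phosphate. Wild-type (WT) mice and Sphk2 knockout (KO) mice gave 2 libraries each, and all 4 libraries came from tumour-bearing animals. The labels give neither the strain, sex or age of the mice, nor the form of the knockout allele, nor the surface markers of the sort. Nor do they say that the 2 libraries of a genotype stand for different animals. The p-values therefore speak of the spread among these 4 samples alone, and that spread may be technical.

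Type I interferons are secreted proteins, mainly the interferon alphas and interferon beta, that bind a receptor made of the Ifnar1 and Ifnar2 chains on nearly every cell. The receptor's kinases phosphorylate Stat2, which acts with Irf9 in a complex that enters the nucleus and binds the interferon-stimulated response element in the promoters of target genes. The targets include sensors of viral RNA, enzymes that degrade RNA or block its translation, and proteins that feed back on the pathway, and in myeloid cells many of them are also transcribed at a low level without infection.

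That response element could be searched for in the promoters of these genes. RefSeq promoter windows of GRCm38.p6, from 250 bases before to 50 bases after a gene's start, were at hand for 30 of the 38 genes. Its core (GAAA, 2 bases of any kind, GAAA) was found on either strand in the windows of 15 of these 30 genes (50%, exact 95% binomial interval 31.3% to 68.7%), and in 3.99% of the 27025 genes with a window. The interval takes the 30 genes as independent draws, although they were picked as interferon stimulated and include near copies. With a C required after the core, which gives a subset of the same matches, 12 of 30 genes (40%) had a match, against 0.944% of all genes. The gamma-activated site (TTC, 3 bases of any kind, GAA), which reads the same way on both strands, was in the windows of 8 of 30 genes (26.7%) and of 9.55% of all genes. A match is a string of letters and was not tested as a binding site. The stretches of 9 genes are printed because these genes span the differences between genotypes, from Ifit3b, the gene with the highest log2 fold change, to Bst2, the one with the lowest. They run 5′ to 3′ on the strand of the gene, and capitals mark the core element, which appears with TTTC in place of GAAA where it lies on the other strand. The stretch of Isg15, a ubiquitin-like protein, is chr4:156200860-156200911 on the minus strand, with 3 overlapping matches, and those of the RNA-binding proteins Ifit1 (chr19:34640770-34640828, plus strand), Ifit3 (chr19:34583358-34583431, plus strand) and Ifit3b (chr19:34607754-34607827, plus strand) follow. Oas1a, a synthase of an RNA-degrading signal, is at chr5:120907526-120907560 on the minus strand, and Ddx60, a helicase, at chr8:61928019-61928086 on the plus strand. Rsad2 (viperin) is at chr12:26456548-26456587, Bst2 (tetherin) at chr8:71537572-71537617 and the chemokine Cxcl10 at chr5:92349078-92349117, all on the minus strand.
Isg15: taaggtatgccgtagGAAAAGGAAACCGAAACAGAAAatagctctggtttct
Ifit1: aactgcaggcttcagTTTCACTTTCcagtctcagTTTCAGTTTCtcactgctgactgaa
Ifit3: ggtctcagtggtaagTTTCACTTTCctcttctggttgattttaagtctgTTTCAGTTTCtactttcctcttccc
Ifit3b: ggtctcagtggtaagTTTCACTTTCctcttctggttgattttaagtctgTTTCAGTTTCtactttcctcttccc
Oas1a: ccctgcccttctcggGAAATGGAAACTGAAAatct
Ddx60: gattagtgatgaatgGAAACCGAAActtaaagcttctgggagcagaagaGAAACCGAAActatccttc
Rsad2: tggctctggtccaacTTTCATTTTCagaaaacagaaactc
Bst2: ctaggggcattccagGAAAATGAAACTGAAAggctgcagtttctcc
Cxcl10: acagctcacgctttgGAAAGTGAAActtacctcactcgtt

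The stretches of Ifit3 and Ifit3b were identical at 74 of 74 bases. Bst2 and Cxcl10 carry the element, as Isg15 and Ifit1 do, and their order of libraries, given further on, was not that of most of the set. The windows of Cmpk2, Ifit2, Irf7, Irf9, Slfn1 and Slfn4 held no match, which says only that these letters are absent from those 300 bases.

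The libraries held 14087613 to 24685576 counts, and the targeted gene served as a check of the labels. In WT replicates 1 and 2 Sphk2 had 1033 and 743 counts, and in KO replicates 57 and 100, which was 54.3 ± 0.821 CPM in WT and 4.26 ± 0.27 in KO (SD, n = 2 each). Its log2 fold change was -3.66 (SE 0.186, edgeR adjusted p = 0.000127). CPM are counts relative to a library size that edgeR's TMM factors scaled, and a gene was called at an adjusted p under 0.05 over all tested genes. Of the tested genes 18 were called, 7 higher and 11 lower in KO. With total counts alone as the scaling, replicates were further apart than counting error allows. The chi-square per degree of freedom was 29.3 in WT and 18.9 in KO, and part of it may be a scaling offset.

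Per length, the 38 genes covered a wide range of levels. The highest was Slfn4, a Schlafen protein of myeloid cells, with a mean of 549 CPM per kilobase of annotated exons over the 4 libraries, and Slfn1 (230.4) and Oasl2 (132) came next. Oas2 (71.6) and Oas3 (57.5), both oligoadenylate synthetases, followed, and then Rtp4 (35.8), Irf7 (34.3), Isg15 (34), Slfn5 (30.5) and Irf9 (27.5). Ifnar1 (27) stood eleventh by this measure and Ifnar2 (20.5) lower. At the other end were Bst2 (4.57), Xaf1 (3.65), Herc6 (3.52), Ifit2 (3.29), Mx1 (1.98), Cxcl10 (1.61), Mx2 (0.986) and Ifi44 (0.0189). Slfn4 alone gave 33.3% to 36.1% of the counts of the set in each library. Neighbours in this order often had overlapping levels across libraries, as Rtp4, Irf7 and Isg15 did, and with the longest annotated transcript as the length 8 of the 10 highest genes were the same.

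**Figure D1:**
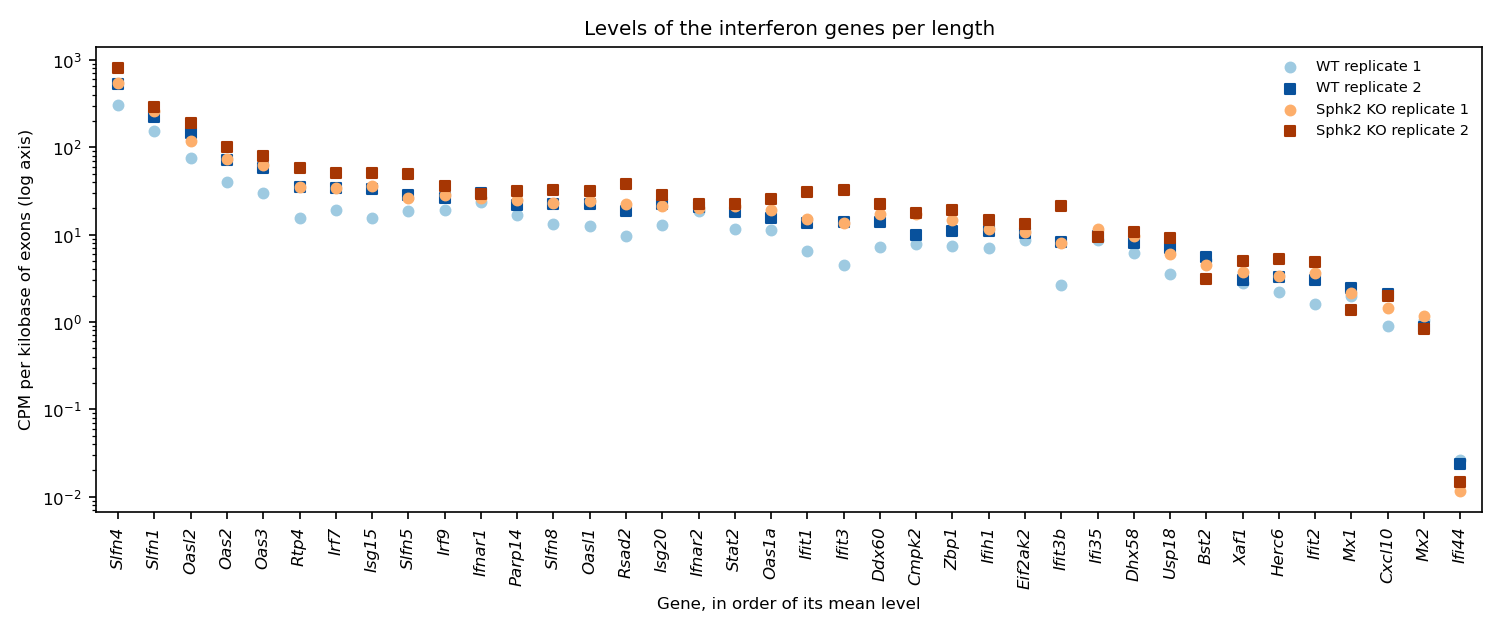
CPM per kilobase of annotated exons (log axis) for each of the 38 interferon stimulated genes in each of the 4 libraries, with genes in order of their mean and one point per library. Slfn4, Slfn1 and Oasl2 lead, Ifi44 is lowest, and within most genes the point of WT replicate 1 is the lowest of the 4.

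Most of the set had higher values in KO than in WT libraries, but no gene of it was called in the main fit. That fit used all 4 libraries with genotype alone in the model. Results with the replicate number as a block, which changed the calls, are given at the end. In edgeR's quasi-likelihood test 0 of 37 genes had an adjusted p under 0.05, against 0.109% of all tested genes (0.0423% higher and 0.0664% lower in KO). At an unadjusted p under 0.05 the count was 21 of 37, all higher in KO, against 3.06% of all tested genes in that direction and 7.47% in the other. The log2 fold change was positive for 35 of 37 genes (49.9% of all tested genes), or for 32 with library size alone as the scaling, and at least 0.5 for 27 (6.72% of all). The median log2 fold change over the 37 genes was 0.64, with a range from -0.50 for Bst2 to 1.46 for Ifit3b, and the median over all tested genes was 0.00. Scaling by library size alone shifted the median of all tested genes to -0.17 and that of the set to 0.48. Without a filter on low counts edgeR called 15 of the genes (2.07% of all then tested). DESeq2 called 1 gene of the set, Cmpk2, where it called 0.478% of the genes it gave an adjusted p. Calls moved with single libraries: without WT replicate 2, edgeR called 27 of the genes (5.93% of all tested), and without KO replicate 1 it called 13 (3.57%). It called 0 without WT replicate 1 (0.319%) and 0 without KO replicate 2 (0.338%), and the median log2 fold change was then 0.29 and 0.39. In each of these fits 1 genotype had a single library, which was assumed to vary like the other genotype. Medians of the role groups also moved with single libraries, for the oligoadenylate synthetase genes from 0.28 without WT replicate 1 to 1.16 without WT replicate 2.

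The order of the 4 libraries was much the same from gene to gene. WT replicate 1 was the lowest for 34 of the 37 genes (32.8% of all tested genes) and KO replicate 2 the highest for 31 (31.3%). Summed over the set, the level was 3664 CPM in WT replicate 1, 6151 in WT replicate 2, 6285 in KO replicate 1 and 8842 in KO replicate 2. WT replicate 2 and KO replicate 1 were therefore close, and each genotype held one library further out. Both KO libraries lay above both WT libraries for 23 genes (20.4% of all tested genes), both lay below for Bst2 alone (22.7%), and the genotypes overlapped for 13. The same 23 genes had the order WT replicate 1, WT replicate 2, KO replicate 1, KO replicate 2 from low to high, an order that 9.94% of all tested genes had. A further 8 genes, Ifnar2, Irf7, Usp18, Ifit3, Ifit3b, Oasl2, Isg20 and Slfn5, differed from it only in that WT replicate 2 was above KO replicate 1. In sorted populations fewer cells of a type and less RNA per cell cannot be told apart.

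**Figure D2:**
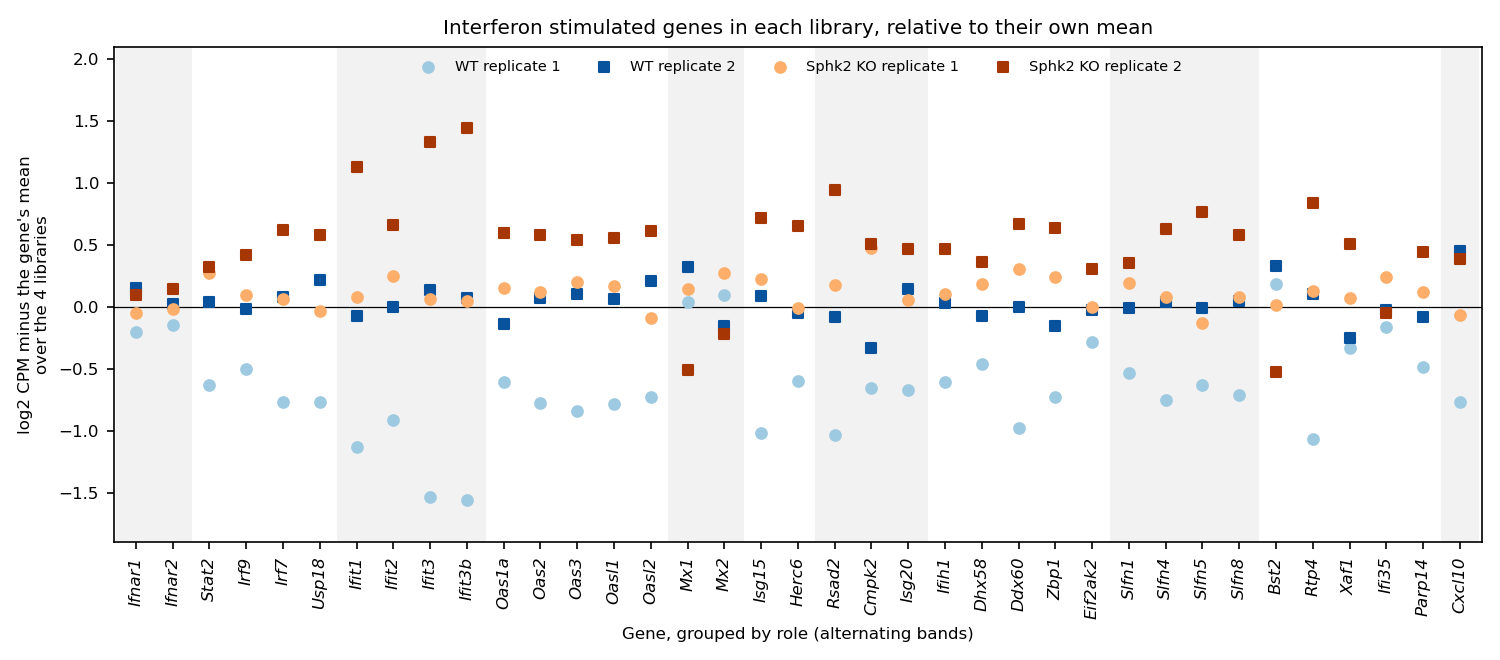
log2 CPM of each of the 37 tested genes in each library, minus the gene's mean over the 4 libraries, with genes grouped by role in alternating bands. The points of WT replicate 1 lie lowest for 34 genes (median -0.67) and those of KO replicate 2 highest for 31 (median 0.55), while WT replicate 2 (median 0.03) and KO replicate 1 (median 0.11) lie between them.

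The 2 receptor chains had nearly the same level in all 4 libraries. Ifnar1 was at 139 and 178 CPM in WT replicates 1 and 2 and at 154 and 171 in KO replicates 1 and 2, so that both KO values lay between the WT values. Its log2 fold change was 0.04 (SE 0.175, edgeR adjusted p = 0.954). Ifnar2 was at 61.5 and 69.2 CPM in WT and at 67.5 and 75.4 in KO, again with overlap (log2 fold change 0.13 with SE 0.15, edgeR adjusted p = 0.759). Both signs turned with library size alone as the scaling, to -0.13 and -0.04. The exons of Ifnar2 share 8.11% of their 75-base sequences with the predicted gene Gm21970, so its count is uncertain to that extent.

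The signalling and feedback genes had higher values in KO, and the median of their log2 fold changes was 0.54. Stat2, the transcription factor particular to this pathway, was at 67.9 and 108 CPM in WT and at 127 and 132 in KO. The KO values were close together and above both WT values, while the WT values were 1.59-fold apart (log2 fold change 0.56 with SE 0.215, edgeR adjusted p = 0.436). Irf9, which provides the DNA contact of the complex, was at 102 and 142 CPM in WT and at 154 and 193 in KO, without overlap (log2 fold change 0.51 with SE 0.204, edgeR adjusted p = 0.446). Irf7, the factor that amplifies interferon alpha transcription, was at 72 and 129.9 CPM in WT and at 128 and 189 in KO. Here WT replicate 2 reached the level of KO replicate 1 (log2 fold change 0.65 with SE 0.289, edgeR adjusted p = 0.473). Usp18, a protease that removes Isg15 from proteins and also blocks the receptor, was at 9.98 and 19.8 CPM in WT and at 16.6 and 25.5 in KO, with overlap (log2 fold change 0.51 with SE 0.34, edgeR adjusted p = 0.609). Exons of Irf7 and Usp18 overlap genes on the opposite strand, Phrf1 and Gm44148, and the strand setting of the counting is not given in the sources used here. The same holds for Oasl1, Dhx58, Eif2ak2, Slfn5, Ifi35 and Cxcl10, which also overlap opposite-strand genes.

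The 4 IFIT genes, neighbours on chromosome 19 whose proteins bind foreign RNA ends and hinder translation, had the highest median log2 fold change of the role groups, 1.27 with all 4 libraries. Without KO replicate 2 their median was 0.59, below the 0.67 of the nucleotide and RNA enzymes, and it was 0.73 without WT replicate 1, 2.12 without WT replicate 2 and 1.72 without KO replicate 1. Ifit1 was at 17.1 and 35.6 CPM in WT and at 39.6 and 82.3 in KO. Its replicates were 2.08-fold apart in both genotypes, and the genotype difference was 2.33-fold, without overlap (log2 fold change 1.22 with SE 0.397, edgeR adjusted p = 0.412). Ifit2 was at 6.37 and 12 CPM in WT and at 14.3 and 19 in KO, without overlap (log2 fold change 0.87 with SE 0.317, edgeR adjusted p = 0.425). Ifit3 was at 7.75 and 24.6 CPM in WT and at 23.4 and 56.6 in KO (log2 fold change 1.33 with SE 0.534, edgeR adjusted p = 0.448). Ifit3b was at 5.26 and 16.3 CPM in WT and at 16.1 and 42.2 in KO (log2 fold change 1.46 with SE 0.552, edgeR adjusted p = 0.43). For both, WT replicate 2 was slightly above KO replicate 1, and the WT replicates differed by more (3.17-fold for Ifit3 and 3.11-fold for Ifit3b) than the genotypes did (2.51-fold and 2.75-fold). Ifit3 and Ifit3b are near copies that share 41.1% and 35.7% of their 75-base transcript sequences with each other, beside the identical promoter stretches shown above, and their counts cannot be taken as separate measurements. Ifit1 shares 5.19% with its neighbour Ifit1bl2.

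The 5 oligoadenylate synthetase genes of chromosome 5 had similar log2 fold changes, from 0.49 to 0.75. Their products sense double-stranded RNA, and the catalytic ones make a short adenylate chain that activates RNase L. Oas1a, with the smallest p of the group, was at 21 and 29.1 CPM in WT and at 35.7 and 48.4 in KO, without overlap (log2 fold change 0.75 with SE 0.222, edgeR adjusted p = 0.401), but it shares 47.6% of its 75-base sequences with its neighbour Oas1g. Oas3, the synthetase with the longest product, was at 214 and 413 CPM in WT and at 441 and 558 in KO. The gap between its WT replicates (1.93-fold) was wider than that between genotypes (1.6-fold; log2 fold change 0.67 with SE 0.307, edgeR adjusted p = 0.48). Oasl2, a ubiquitin-like relative and the most abundant of the 5 by CPM, was at 479 and 921 CPM in WT and at 747 and 1216 in KO, with overlap (log2 fold change 0.49 with SE 0.361, edgeR adjusted p = 0.646). Oas2 and Oasl1, a repressor of Irf7 translation, had log2 fold changes of 0.66 and 0.68 and no overlap of the genotypes.

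The dynamin-like GTPases Mx1 and Mx2, which assemble around viral nucleoproteins, did not follow the order of the set. Mx1 was at 7.54 and 9.18 CPM in WT and at 8.13 and 5.16 in KO, so that KO replicate 2 was the lowest library (log2 fold change -0.34 with SE 0.3, edgeR adjusted p = 0.694). Mx2 was at 3.77 and 3.18 CPM in WT and at 4.28 and 3.03 in KO (log2 fold change 0.05 with SE 0.331, edgeR adjusted p = 0.964, and -0.12 with library size alone as the scaling). KO replicate 2, highest for 31 genes of the set, was thus the lowest library for both. As background, many inbred laboratory mouse strains carry defective alleles of the Mx genes, and the strain is not given in the sources used here.

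Isg15 and Herc6, the ubiquitin-like modifier and the ligase that attaches it in mice, both had KO values above WT values. Isg15 was at 11.6 and 25 CPM in WT and at 27.5 and 38.7 in KO (log2 fold change 0.87 with SE 0.338, edgeR adjusted p = 0.441). KO replicate 1 was close to WT replicate 2 here, and the WT replicates were 2.15-fold apart. Herc6 was at 20.5 and 30.1 CPM in WT and at 31 and 49 in KO (log2 fold change 0.67 with SE 0.263, edgeR adjusted p = 0.442). It shares 22.4% of its 75-base sequences with the predicted gene Gm45193.

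Cmpk2 had the smallest p of the set. This mitochondrial nucleotide kinase, which lies beside Rsad2 on chromosome 12, was at 32.5 and 40.7 CPM in WT (36.6 ± 5.75, SD, n = 2) and at 71.1 and 73 CPM in KO (72 ± 1.29, SD, n = 2). Both replicate gaps were small against the 1.97-fold difference between genotypes. The log2 fold change was 0.98 (SE 0.162, unadjusted p = 0.000278), with an edgeR adjusted p = 0.138 and a DESeq2 adjusted p = 0.00761, so the 2 tools placed it on different sides of the threshold. Rsad2, which makes a chain-terminating nucleotide from CTP, was at 41.6 and 80.4 CPM in WT and at 96.6 and 164 in KO, also without overlap but with wider gaps between replicates (log2 fold change 1.10 with SE 0.331, edgeR adjusted p = 0.401). Isg20, an exonuclease of single-stranded RNA, was at 23.8 and 41.8 CPM in WT and at 39.4 and 52.4 in KO, with overlap (log2 fold change 0.49 with SE 0.268, edgeR adjusted p = 0.547).

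All 5 nucleic acid sensor genes had both KO libraries above both WT libraries (20.4% of all tested genes), in the order most of the set had. Zbp1, a sensor of left-handed nucleic acids, was at 26.2 and 38.9 CPM in WT and at 51.2 and 67.3 in KO (log2 fold change 0.87 with SE 0.225, edgeR adjusted p = 0.39). Ddx60, a helicase that promotes RNA sensing, was at 61.9 and 122 CPM in WT and at 151 and 194 in KO (log2 fold change 0.91 with SE 0.294, edgeR adjusted p = 0.412). Ifih1, or MDA5, the sensor of long double-stranded RNA, was at 57.3 and 89.1 CPM in WT and at 94 and 121 in KO (log2 fold change 0.56 with SE 0.228, edgeR adjusted p = 0.454). WT replicate 2 and KO replicate 1 of Ifih1 were nearly level, whereas in Zbp1 they were further apart. Eif2ak2, or PKR, the kinase that halts translation on binding double-stranded RNA, was at 44.7 and 53.3 CPM in WT and at 54.4 and 67.2 in KO, the smallest difference of the group (log2 fold change 0.31 with SE 0.17, edgeR adjusted p = 0.543). Dhx58 (LGP2), a helper of Ifih1, had a log2 fold change of 0.53.

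The 4 Schlafen genes, a cluster on chromosome 11 expressed in lymphoid and myeloid cells, had log2 fold changes from 0.53 to 0.69. Slfn4 was at 1219.6 and 2112 CPM in WT (1666 ± 631, SD, n = 2) and at 2177 and 3189.9 in KO (2684 ± 716, SD, n = 2). Its KO values were above its WT values, but KO replicate 1 exceeded WT replicate 2 by little against either replicate gap (log2 fold change 0.69 with SE 0.37, edgeR adjusted p = 0.541). Slfn1, linked to quiescence of T cells, was at 289 and 416 CPM in WT and at 479 and 535 in KO, without overlap (log2 fold change 0.53 with SE 0.227, edgeR adjusted p = 0.471). Slfn8 was at 54.3 and 92.1 CPM in WT and at 94.2 and 133 in KO (log2 fold change 0.64 with SE 0.263, edgeR adjusted p = 0.455), and 7.52% of its 75-base sequences also occur in Slfn9 or Slfn10-ps. Slfn5 had a log2 fold change of 0.68 and overlapped between genotypes.

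Among the other effectors, Rtp4, Xaf1 and Parp14 had higher values in both KO libraries and Bst2 lower ones. Rtp4, a chaperone of membrane receptors, was at 32.8 and 73.8 CPM in WT and at 75.4 and 123 in KO (log2 fold change 0.91 with SE 0.363, edgeR adjusted p = 0.448). Xaf1, which antagonises an inhibitor of apoptosis, was at 13.2 and 14 CPM in WT and at 17.5 and 23.6 in KO (log2 fold change 0.60 with SE 0.216, edgeR adjusted p = 0.425). The WT replicates of Xaf1 were level, unlike those of Rtp4, which were 2.25-fold apart. Rtp4 shares 12.4% of its 75-base sequences with the predicted gene Gm45338. Parp14, an ADP-ribosyltransferase, was at 154 and 204 CPM in WT and at 234 and 293 in KO (log2 fold change 0.56 with SE 0.203, edgeR adjusted p = 0.425). Bst2 tethers budding virions to the membrane and is also a surface marker of plasmacytoid dendritic cells in mice. It was at 4.57 and 5.06 CPM in WT and at 4.07 and 2.8 in KO, the only one of the 37 tested genes with both KO libraries below both WT libraries (log2 fold change -0.50 with SE 0.321, edgeR adjusted p = 0.597). Ifi35, a partner of Nmi, had a log2 fold change of 0.19. Ifi44 had too few counts for a comparison, as given at the start.

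Cxcl10, a chemokine that draws T cells and NK cells through Cxcr3, was at 2.02 and 4.7 CPM in WT and at 3.28 and 4.49 in KO. The KO values lay between the WT values (log2 fold change 0.25 with SE 0.433, edgeR adjusted p = 0.848). Its replicates in WT were 2.33-fold apart.

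**Figure D3:**
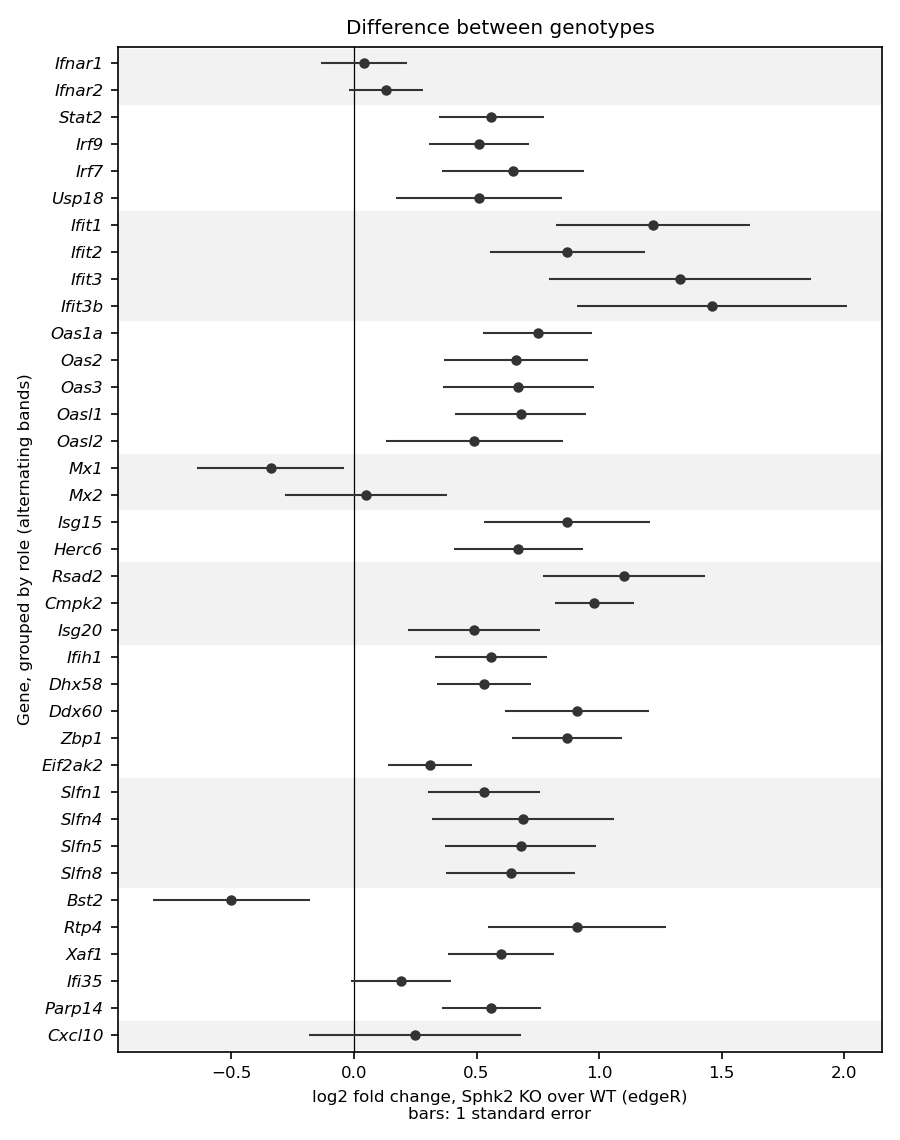
edgeR log2 fold change of KO over WT for each of the 37 tested genes, with bars of 1 standard error, grouped by role in alternating bands. Values run from -0.50 for Bst2 to 1.46 for Ifit3b, and 35 of 37 are above 0, with none called.

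The median gap between the WT replicates was about as large as the median difference between genotypes, and that between the KO replicates was smaller. Both gaps had a direction shared by most of the set. WT replicate 2 was above WT replicate 1 for 36 of 37 genes (46.5% of all tested genes), with Mx2 as the exception, by a median of 0.66 on the log2 scale. KO replicate 2 was above KO replicate 1 for 33 genes (48.9%), by a median of 0.40. KO replicate 1 exceeded WT replicate 2 for 25 genes (49.3% of all tested genes), by a median of 0.08 over all 37. The gap between the WT replicates was larger in size than the difference between genotypes for 19 genes (57.5% of all tested genes), and the gap between the KO replicates for 11 (50.5%). The first count is a share close to that of all tested genes, and the second is a smaller share. Cmpk2, Zbp1, Oas1a and Xaf1 were among the genes whose difference between genotypes exceeded both replicate gaps, and Ifit3, Ifit3b, Oasl2 and Usp18 among those whose WT gap exceeded it. With 2 libraries in each genotype the smallest p an exact permutation test can give for a single gene is 0.333, two-sided.

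**Figure D4:**
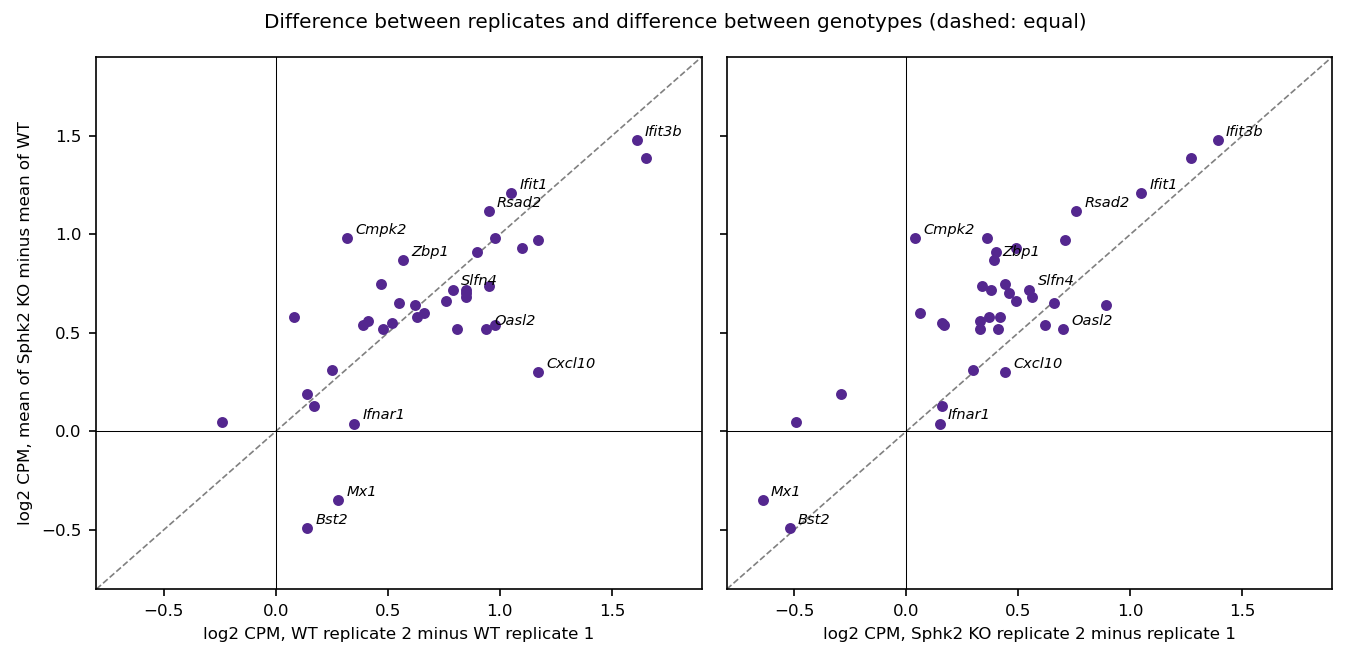
Difference between genotypes (log2 CPM, mean of KO minus mean of WT) against the difference between replicates of WT (left) and of KO (right), with a point for each of the 37 tested genes and a dashed line where the 2 are equal. On the left 19 genes have a replicate gap larger in size than the genotype difference, on the right 11 do, and Cmpk2 lies near 0 on the right at a genotype difference of 0.98.

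Genes with and without the response element in their promoter window had overlapping ranges of log2 fold change, and their difference was not tested. The 15 genes with the core element had a median log2 fold change of 0.68, ranging from -0.50 for Bst2 to 1.46 for Ifit3b. Both KO libraries were above both WT libraries for 10 of these 15 genes (20.4% of all tested genes). The 4 highest values of the set, those of Ifit3b, Ifit3, Ifit1 and Rsad2, were from genes with the element. Ifit3 and Ifit3b are near copies with identical printed stretches, so they do not count as separate cases. The 14 tested genes whose window lacked the element had a median of 0.56, from 0.04 for Ifnar1 to 0.98 for Cmpk2. For 8 of these 14 both KO libraries were above both WT libraries. The 8 genes without a window in the table had a median of 0.54. The 2 genes with negative log2 fold changes were Bst2, which has the element, and Mx1, which has no window in the table.

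Beyond the set, 107 other genes of the interferon pathways were matched, of which 83 were tested. None was called by edgeR (0.109% of all tested genes), and the median log2 fold change was 0.26. At an unadjusted p under 0.05, 17 were higher in KO (3.06% of all tested genes) and 9 lower (7.47%). The interferon genes themselves were at or near 0. Of 21 ligand genes 16 had no count in any library, Ifnab had 2, 0, 1 and 1 counts, Ifnb1 0, 0, 1 and 1, Ifnz 0, 0, 0 and 1, and Ifng, the type II interferon, 4, 1, 2 and 1. Only Ifnk, an interferon of skin cells, was tested, with 26, 22, 23 and 32 counts. Its log2 fold change was 0.04 (SE 0.38, edgeR adjusted p = 0.975), or -0.13 with library size alone as the scaling. Transcripts of the ligands other than Ifnk were thus too few for a difference to be detectable at this depth, and other cells of the animals were not measured.

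Among the kinases, STATs and other receptors, 7 of 9 genes had positive log2 fold changes (49.9% of all tested genes), or 6 with library size alone as the scaling. Ifnlr1, the receptor of interferon lambda, was at 41.7 and 60.5 CPM in WT and at 77.5 and 96.1 in KO, without overlap (log2 fold change 0.77 with SE 0.207, edgeR adjusted p = 0.394). Stat3, the highest of them by CPM, was at 633 and 845 CPM in WT and at 773 and 943 in KO, with overlap (log2 fold change 0.21). Of the 5 interferon regulatory factors outside the set, Irf1, an activator, was at 218 and 302 CPM in WT and at 400.3 and 371 in KO, without overlap (log2 fold change 0.57). Irf8, a factor of monocytes and dendritic cells, had a log2 fold change of -0.81. Irf8 was at 82.6 and 63 CPM in WT and at 55.5 and 28 in KO, so that its order ran against that of the set (SE 0.295, edgeR adjusted p = 0.425).

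The sensors and adaptors upstream of interferon production had a median of -0.22 over 12 genes. At an unadjusted p under 0.05, 3 were lower (7.47% of all tested genes) and 0 higher (3.06%). Tmem173, or STING, the adaptor of cytosolic DNA sensing, was at 31.1 and 22.9 CPM in WT and at 18.9 and 11.1 in KO (log2 fold change -0.86 with SE 0.281, edgeR adjusted p = 0.414). Myd88, the Toll-like receptor adaptor, was at 197 and 291 CPM in WT and at 259.8 and 329.8 in KO, with overlap (log2 fold change 0.27). The 6 negative regulators had positive log2 fold changes, from 0.04 to 0.37, of which 4 kept that sign with library size alone. Socs3, an inhibitor of the kinases, was at 879.9 and 1388 CPM in WT and at 1246 and 1474 in KO (log2 fold change 0.26). Nlrc5 was at 82.8 and 77.8 CPM in WT and at 106 and 85 in KO, without overlap (log2 fold change 0.25). Of 50 tested further interferon stimulated genes, 40 had positive log2 fold changes (49.9% of all tested genes), or 35 with library size alone. Their median was 0.32, and at an unadjusted p under 0.05, 14 were higher (3.06% of all tested genes) and 4 lower (7.47%). Igtp, an immunity-related GTPase, was at 16.3 and 25.6 CPM in WT and at 42.4 and 41.5 in KO (log2 fold change 1.01, SE 0.225), with an edgeR adjusted p = 0.302 and a DESeq2 adjusted p = 0.0463. Ifitm1, which blocks viral entry, was at 1044 and 1586 CPM in WT and at 1351 and 1846 in KO, with overlap (log2 fold change 0.28).

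Several lists of cell type markers followed the same order of libraries or its reverse. The 12 mature neutrophil markers, genes that granulocytic MDSCs also express, summed to 23011 and 34036 CPM in WT and 35145 and 44565 in KO. Of their 12 log2 fold changes 12 were positive (49.9% of all tested genes), or 11 with library size alone, with a median of 0.37. The 10 neutrophil precursor markers summed to 7669 and 5231 CPM in WT and 9564 and 6279 in KO, with a median of -0.52. The 10 monocyte and macrophage markers summed to 2499 and 1669.6 CPM in WT and 1616 and 1069 in KO, with 1 positive log2 fold change and a median of -0.72. By these sums WT replicate 1, lowest for 34 genes of the set, had the least mature neutrophil and the most monocyte signal. The reverse held for KO replicate 2. Single genes differed from the sums: Fn1 gave 1172 of the 2499 CPM of monocyte markers in WT replicate 1. For 3 of the 10 monocyte genes, Csf1r, Adgre1 and Cd68, WT replicate 1 was the lowest library. The precursor sum was lowest in WT replicate 2 and highest in KO replicate 1, as were Camp, Ltf, Ngp and Lcn2. Chil3 was lowest in WT replicate 2 and highest in WT replicate 1. In contrast, Elane, Mpo, Prtn3, Ctsg and Ms4a3 were highest in WT replicate 1 and lowest in KO replicate 2. Mpo was at 92.8 and 24.7 CPM in WT and at 31.5 and 10.5 in KO.

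Plasmacytoid dendritic cells are known for making interferon alpha. Their 8 markers summed to 97.01 and 87.72 CPM in WT and 72.84 and 53.43 in KO. Most of each sum came from Tcf4 (63.7 and 50.9 CPM in WT, 46 and 35.9 in KO) and Ly6d (20.7 and 25.1, 17.9 and 10.1). Of the 5 tested markers 4 had negative log2 fold changes and that of Cd300c was 0.12, with a median of -0.58. Siglech, the defining marker of this cell type, was near 0, at 0.85, 0.506, 0.214 and 0.133 CPM. Klk1 had 2 and 1 counts in WT and 0 in both KO libraries, and neither gene was tested. B cell markers summed to 1441 and 1219 CPM in WT and 1416 and 654 in KO, and markers of T cells and of EL4 cells to 45.82 and 39.02 CPM in WT and 27.68 and 22.33 in KO. Conventional dendritic cell markers ran from 27.98 to 47.42 CPM and NK cell markers from 1.926 to 3.982, both with lower sums in KO. Erythroid markers summed to 59.58 and 183 CPM in WT and 307 and 530.3 in KO, and the median of the 6 log2 fold changes was 1.56. Eosinophil, basophil and mast cell markers summed to between 71.13 and 76.31 CPM. Of 72 tested marker genes edgeR called 0 (smallest adjusted p = 0.182). At an unadjusted p under 0.05, 9 were higher in KO (3.06% of all tested genes) and 18 lower (7.47%). DESeq2 called 3 of the marker genes, Mmp8 and Retnlg of neutrophils and Thy1 of T cells (0.478% of the genes it gave an adjusted p). The part of these cell types in the values of the interferon stimulated genes was not tested.

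**Figure D5:**
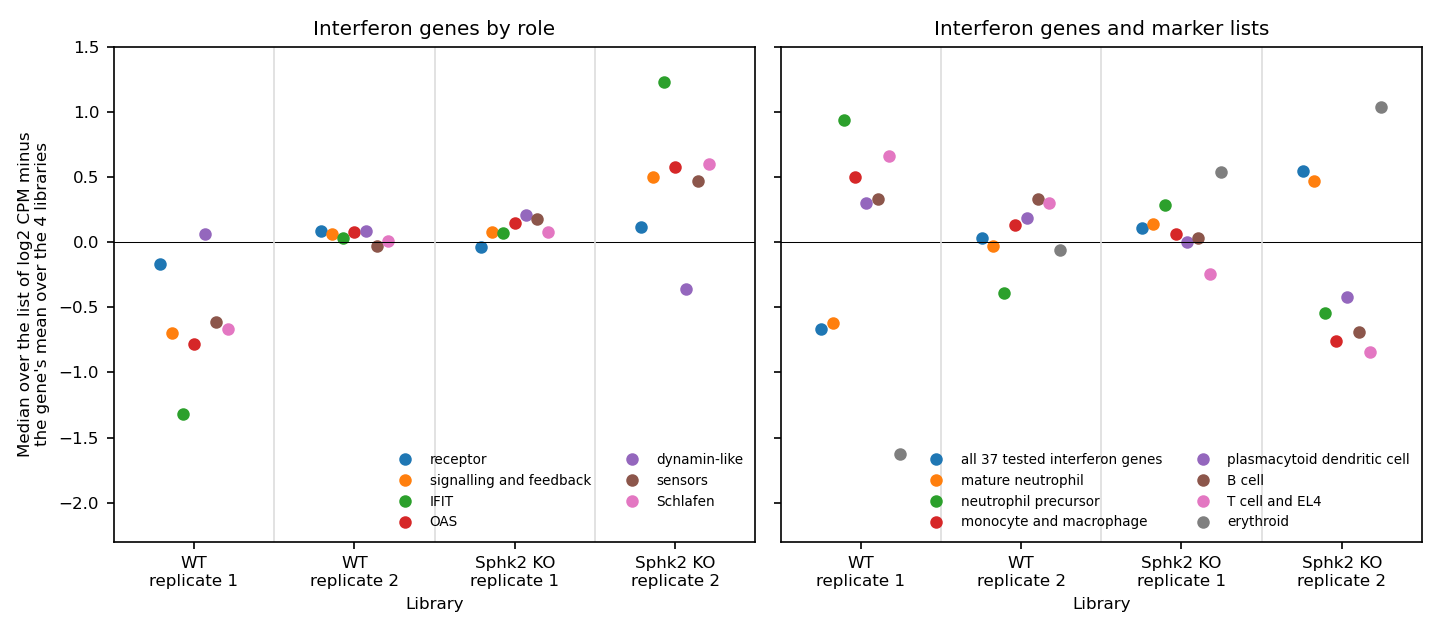
Median over each list of log2 CPM minus the gene's mean over the 4 libraries, by library, for role groups of the interferon stimulated genes (left) and for the 37 tested genes beside marker lists (right). Most role groups and the mature neutrophil and erythroid markers are lowest in WT replicate 1 and highest in KO replicate 2, while monocyte, plasmacytoid dendritic cell and T cell markers are highest in WT replicate 1 and lowest in KO replicate 2.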

How the data were processed

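Per the labels' protocols, poly(A) libraries were made with a directional kit and read as paired ends. The authors deposited untransformed counts for Ensembl gene IDs in 4 columns. The submitters' processing notes name build GRCm39, Trim Galore, STAR, featureCounts and DESeq2. Versions, annotation release and strand setting were not given in the sources used here, so reads of copies and of overlapping genes may be misassigned.

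Genes were filtered (filterByExpr), scaled (TMM) and tested with edgeR 4.0.16 in R 4.3.3 (glmQLFit, glmQLFTest, all 4 libraries, with genotype alone in the model), with Benjamini-Hochberg adjustment over 16566 genes. The standard error is the log2 fold change divided by the square root of F. DESeq2 1.42.0, limma-voom (limma 3.58.1), RLE factors, library size alone, other filters, a replicate block and leaving out each library were alternatives. Calling used an adjusted p under 0.05.

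Symbols, exon lengths, shared 75-base sequences and overlaps came from GENCODE M21 of GRCm38 and a name table, through gene IDs. Per-gene coordinates of the counts' build were not used. Of the pathway symbols, Mnda had no match. The genes of the set and the lists were chosen with earlier results of these data known. Values in every library were given for the receptor, Stat2, Irf9, Irf7 and Usp18 genes and, per role, for the 2 most abundant genes, the smallest p and the highest and lowest log2 fold change, and outside the set for each pathway list's most abundant gene by CPM and smallest p. Intervals cover counting error only.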

Additional observations from a re-analysis of the deposited data

How the results depend on the processing

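Without a filter on low counts, edgeR called 615 genes, 15 of them in the set, and DESeq2 called 76 and 1. Under RLE factors, library size alone, limma-voom and a stricter filter, 15 to 19 genes were called, 0 of them in the set. In those fits 19 to 22 genes of the set had an unadjusted p under 0.05. The share of all tested genes at that p was computed for the main fit alone, 10.5% in either direction. Leaving out each library in turn gave 54 to 1061 called genes, 0 to 27 of them in the set, 6 to 31 genes of the set at an unadjusted p under 0.05, and medians of 0.29 to 1.04 for the set and 0.07 to 0.48 for the other pathway genes. In these fits the lone library of a genotype was assumed to vary like the other genotype. Of the 37 genes, 32 to 35 had positive log2 fold changes under each alternative. Library size alone reversed Ifnar1 (-0.13), Ifnar2 (-0.04) and Mx2 (-0.12). With single libraries left out, Ifnar1 ran from -0.14 to 0.24, Mx2 from -0.21 to 0.30 and Cxcl10 from -0.27 to 0.97. The cause was not tested. The median of the set was 0.56 over genes sharing under 5% of their sequences and, in alternatives chosen after seeing the data, 0.64 without chromosome 7 and 0.65 without the receptors.

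With the replicate number as a block, edgeR called 2637 genes (15.9%), 29 of them in the set, at a median of 0.65. The replicate numbers are only numbers in the labels. The difference of replicate 2 from replicate 1 correlated at 0.438 between genotypes over all tested genes, which are not independent replicates, and with 2 pairs this does not establish a pairing.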
